A study of Mus musculus with 11 samples.

Results

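Coro2b, Tiam2 and Hip1 are genes for proteins that act on the actin cytoskeleton or on membrane traffic, and they were followed in RNA from dendritic cells of the mouse spleen. They are 3 of the 417 gene rows of a table of read counts, FPKM and log2 normalised values, and each was found by its gene symbol. The authors kept the rows of that table for an absolute fold of at least 2 with an unadjusted p under 0.05 between genotypes, so the genotype differences of these 3 genes chose them and are given as a description without a test. The members lie across that selection: Coro2b ranked 1 of 417 by the authors' deposited p, Hip1 ranked 154 and Tiam2 ranked 267. Hip1 was the row nearest to the threshold of the table, at an absolute fold of 2.0009 in the authors' deposited table, and the next row stood at 2.0013. Because the table ends there, no gene just outside the threshold could be shown.

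The 11 libraries came from C57BL/6J mice aged 12 to 16 weeks. The first group, C105F/+, holds 5 libraries (numbered 2 to 6 in the labels) of heterozygous mice in which CRISPR in embryos had turned a cysteine of uromodulin (UMOD), a protein of the kidney tubule, into phenylalanine. The labels write the change as C105F and in 1 protocol as C106F. The control group holds 6 libraries (numbered 1 to 6) from wild type littermates. All spleens were digested with collagenase and all dendritic cells were enriched by magnetic removal of other cells, so the libraries are bulk RNA of an enriched population. The mutation is in the germ line and not restricted to dendritic cells. Sex, batch and kidney injury are not given for a mouse, and the labels do not tie each library to an animal of its own. The p-values below therefore measure the spread between these libraries.

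Coronins are proteins with a ring of repeats that bind actin filaments, and Coro2b belongs to a subgroup best known from neurons. Tiam2, also called STEF, is a guanine nucleotide exchange factor: it loads the small GTPase Rac, which drives the branched actin of membrane ruffles, and it is the close relative of Tiam1. Hip1 is an adaptor of clathrin-coated vesicles that binds phosphoinositides, clathrin and the clathrin adaptor AP2, and with its relative Hip1r it links endocytic sites to actin. Dendritic cells rely on such machinery for uptake of material, for processes that probe the tissue and for migration to lymphoid organs.

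Promoter windows are shown because the 3 genes differ in the starts annotated for them, which bears on the transcript lengths described at the end. The windows run from 250 bases before to 50 bases after a start and were taken from RefSeq (build GRCm38.p6). Those of Coro2b (chr9:62536995-62537294) and Hip1 (chr5:135545073-135545372) are on the minus strand, and those of Tiam2 (chr17:3396957-3397256, chr17:3482065-3482364 and chr17:3483240-3483539) are on the plus strand. Each is written 5′ to 3′ along its gene with the dinucleotide CG in capitals.
Coro2b, start 62537044: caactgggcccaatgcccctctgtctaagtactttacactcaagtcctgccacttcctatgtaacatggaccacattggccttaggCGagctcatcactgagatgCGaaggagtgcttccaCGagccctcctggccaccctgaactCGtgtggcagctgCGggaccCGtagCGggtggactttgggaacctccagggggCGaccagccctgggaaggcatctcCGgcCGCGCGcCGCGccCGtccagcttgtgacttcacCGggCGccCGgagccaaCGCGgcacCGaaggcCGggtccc
Hip1, start 135545122: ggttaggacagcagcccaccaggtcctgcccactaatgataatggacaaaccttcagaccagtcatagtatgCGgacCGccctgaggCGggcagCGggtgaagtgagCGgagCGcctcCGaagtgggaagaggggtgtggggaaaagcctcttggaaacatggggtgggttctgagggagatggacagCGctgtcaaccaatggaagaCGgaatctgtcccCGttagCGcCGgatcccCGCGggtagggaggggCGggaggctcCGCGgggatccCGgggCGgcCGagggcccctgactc
Tiam2, start 3397207: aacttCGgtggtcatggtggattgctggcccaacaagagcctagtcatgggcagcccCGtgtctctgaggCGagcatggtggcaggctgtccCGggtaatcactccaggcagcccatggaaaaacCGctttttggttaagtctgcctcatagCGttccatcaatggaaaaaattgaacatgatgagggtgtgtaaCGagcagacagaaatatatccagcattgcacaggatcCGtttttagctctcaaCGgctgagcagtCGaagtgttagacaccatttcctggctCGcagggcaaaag
Tiam2, start 3482315: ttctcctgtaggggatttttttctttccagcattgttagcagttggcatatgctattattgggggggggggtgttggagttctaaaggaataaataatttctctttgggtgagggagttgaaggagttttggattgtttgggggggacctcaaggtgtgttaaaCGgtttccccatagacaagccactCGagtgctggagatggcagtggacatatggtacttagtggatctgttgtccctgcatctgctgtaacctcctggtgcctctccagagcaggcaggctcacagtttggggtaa
Tiam2, start 3483490: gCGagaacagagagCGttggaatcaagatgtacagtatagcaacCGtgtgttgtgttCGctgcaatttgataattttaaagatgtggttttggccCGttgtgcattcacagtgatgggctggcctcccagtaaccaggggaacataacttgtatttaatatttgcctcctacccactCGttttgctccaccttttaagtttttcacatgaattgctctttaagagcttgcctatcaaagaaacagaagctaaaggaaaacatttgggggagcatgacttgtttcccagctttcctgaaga
The Coro2b window held 22 CG and the Hip1 window 20. Among the 32851 promoter windows of the same length, 23.1% and 26.5% held at least as many. The Tiam2 windows held 11, 2 and 6 CG in the order shown, and 41.4%, 85.9% and 56.4% of all windows held at least as many, the median being 7. A second Hip1 window (chr5:135489180-135489479, minus strand) held 28, a number reached by 14.2% of windows. CG reads the same on both strands and was the only motif searched. The CG count describes these letters and says nothing about the use of a start in dendritic cells.

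Depth differed between libraries. The size factors, which stand for relative depth, had their lowest value (0.615) in wild type 1 and their highest (1.98) in C105F/+ 2. Scaled counts below are read counts divided by these size factors. Of 25 listed dendritic cell markers 2 had rows, Itgae and Pacsin1, and the others were not analysed here. Both were higher in C105F/+: Itgae, an integrin chain of a dendritic cell subset and of some T cells, had 2355 ± 1046 scaled counts (SD, n = 5) against 629.9 ± 310.8 (SD, n = 6). Wild type 4 stood apart on them, with 99.5 scaled counts of Itgae where other wild type libraries held 460.0 to 895.8, and a mean log2 level of both of 6.38 against 9.06 to 9.50. Umod was not analysed here, so the genotype was not checked from it. In C105F/+ 253 rows were higher and 164 lower. In this bulk RNA, a difference in the number of cells of a type cannot be told apart from a difference in RNA per cell.

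Coro2b was low in every wild type library and several-fold higher in every C105F/+ library. Its read counts in C105F/+ 2 to 6 were 248, 72, 92, 85 and 97, and in wild type they had a lowest value of 3 (wild type 2), a median of 11.5 and a highest value of 29 (wild type 5). On the scaled count scale the C105F/+ libraries held 125.3, 68.3, 100.2, 91.0 and 117.4, against 2.88, 13.8 and 24.4 for the lowest, median and highest wild type library. The lowest C105F/+ library, C105F/+ 3, thus lay above the highest wild type library, and the groups did not overlap. The mean scaled count was 100.4 ± 22.5 (SD, n = 5) in C105F/+ and 14.3 ± 7.47 (SD, n = 6) in wild type. The log2 fold change was 2.80 with an SE of 0.52 and a 95% interval of 1.69 to 3.91, where the median over all rows tested was 1.11. In the authors' deposited table the fold was 7.03 with an adjusted p of 1.64e-07. Every C105F/+ library lay above every wild type library in 42 of the 417 rows, which is 10.1%, and the authors' deposited adjusted p was under 0.05 for 21.1% of rows in the higher direction. Coro2b is among both sets, and as the table was selected on the same contrast nothing is read from that. Because wild type libraries held 3 to 29 reads of Coro2b, the differences among them rest on few reads.

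Tiam2 was split within C105F/+. Its read counts in C105F/+ 2 to 6 were 701, 75, 112, 319 and 328, and in wild type they had a lowest value of 80, a median of 116.5 and a highest value of 193. The scaled counts were 354.1, 71.1, 122.0, 341.6 and 396.8 in C105F/+, against 92.0, 131.1 and 162.6 for the lowest, median and highest wild type library. C105F/+ 2, 5 and 6 lay above every wild type library, C105F/+ 4 lay within the wild type range, and C105F/+ 3 lay below every wild type library. The mean was 257.1 ± 149.1 (SD, n = 5) in C105F/+ and 126.4 ± 26.8 (SD, n = 6) in wild type. The log2 fold change was 1.02 (SE 0.45, 95% interval 0.06 to 1.98). The authors' deposited table gives an adjusted p of 0.146. The C105F/+ mean thus stood between the levels of the libraries and matched none of them.

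Hip1, the most abundant of the 3, had the same split. Its read counts in C105F/+ 2 to 6 were 2450, 376, 421, 1002 and 774, and in wild type they had a lowest value of 224, a median of 346.5 and a highest value of 575. The scaled counts were 1238, 356.6, 458.5, 1073 and 936.4 in C105F/+, against 276.1, 401.4 and 546.4 for the lowest, median and highest wild type library. C105F/+ 2, 5 and 6 lay above every wild type library, and C105F/+ 3 and 4 lay within the wild type range. The mean was 812.4 ± 386.4 (SD, n = 5) in C105F/+ and 406.1 ± 101.8 (SD, n = 6) in wild type. The log2 fold change was 1.00 (SE 0.38, 95% interval 0.20 to 1.81). The authors' deposited table gives an adjusted p of 0.0677.

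**Figure D1:**
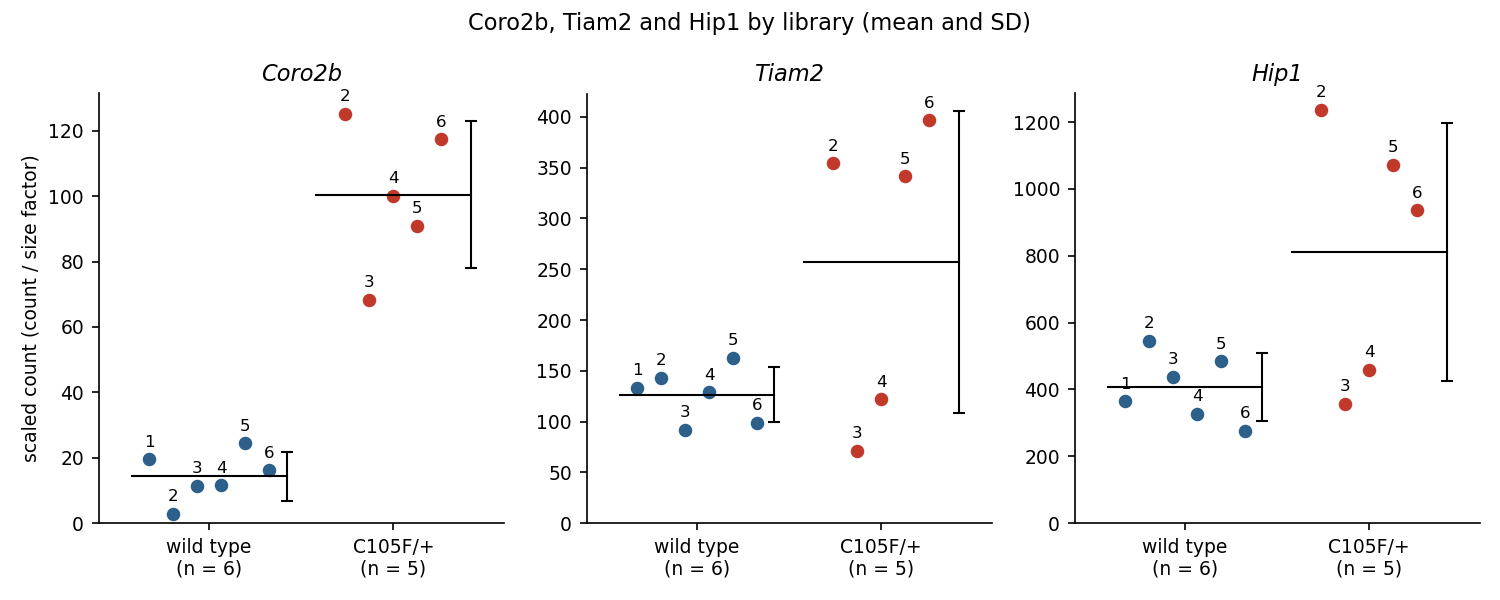
Scaled read counts of Coro2b, Tiam2 and Hip1 by library, with the library number beside each point, a line at the group mean and a bar for ± SD (wild type n = 6, C105F/+ n = 5). All 5 C105F/+ points of Coro2b lie above wild type, whereas for Tiam2 and Hip1 3 of 5 do.

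Per length, Hip1 had the highest level of the 3 genes in every library. The median FPKM in wild type was 0.894 for Hip1, 0.367 for Tiam2 and 0.0705 for Coro2b, and in C105F/+ it was 2.40, 1.16 and 0.545. The FPKM of Coro2b in C105F/+ 2 to 6 was 0.743, 0.340, 0.545, 0.521 and 0.650, against 0.0091 to 0.127 in wild type. In C105F/+ 3 and 4 the order of the lower pair was turned: Coro2b stood at 0.340 and 0.545 FPKM and Tiam2 at 0.207 and 0.389 FPKM. In the other 9 libraries Tiam2 was above Coro2b on this scale. The ratio of the C105F/+ to the wild type mean was 8.19 for Coro2b in FPKM and 7.01 in scaled counts. For Hip1 these ratios were 2.30 and 2.00, and for Tiam2 they were 2.69 and 2.03. FPKM does not use the size factors, and the source of these gaps was not tested. In C105F/+ 2 the FPKM and the count of Tiam2 went apart, as described at the end.

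Transcripts of lymphocytes varied strongly among the same libraries. Marker lists for NK cells, T cells, plasma cells and B cells had 25 rows of 96 listed genes, all higher in C105F/+. Of all 417 rows 253 were higher. The other listed genes had no rows in this table selected on genotype, so the shared direction is a description. The summed scaled count of the 25 rows ran from 21556 to 229250 in C105F/+ and from 23906 to 34517 in wild type. Most of it was Jchain of the plasma cell list, with 13489 to 196308 and 14972 to 24371. The T cell rows summed to 250.4 to 1351 and 154.5 to 226.6, and the NK cell rows to 55.0 to 1017 and 53.8 to 280.6. Bcl11b, Prf1, Ncr1 and Klra9 were at 0 in at least 1 library, and none was at 0 throughout either group. A lymphocyte score per library was the mean of log2(scaled count + 1) over the 24 of these rows with a mean scaled count of at least 10. It was 9.60, 6.50, 7.81, 9.24 and 9.18 in C105F/+ 2 to 6, and in wild type it ran from 6.36 to 7.28 with a median of 6.71. C105F/+ 2, 5 and 6 therefore had the highest scores, C105F/+ 4 an intermediate score, and C105F/+ 3 lay within the wild type range. The former 3 are also the libraries in which Tiam2 and Hip1 lay above every wild type library. At the wild type score of C105F/+ 3, Coro2b was at 68.3 scaled counts and above every wild type library, Tiam2 at 71.1 and below every wild type library, and Hip1 at 356.6 and within the wild type range.

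**Figure D2:**
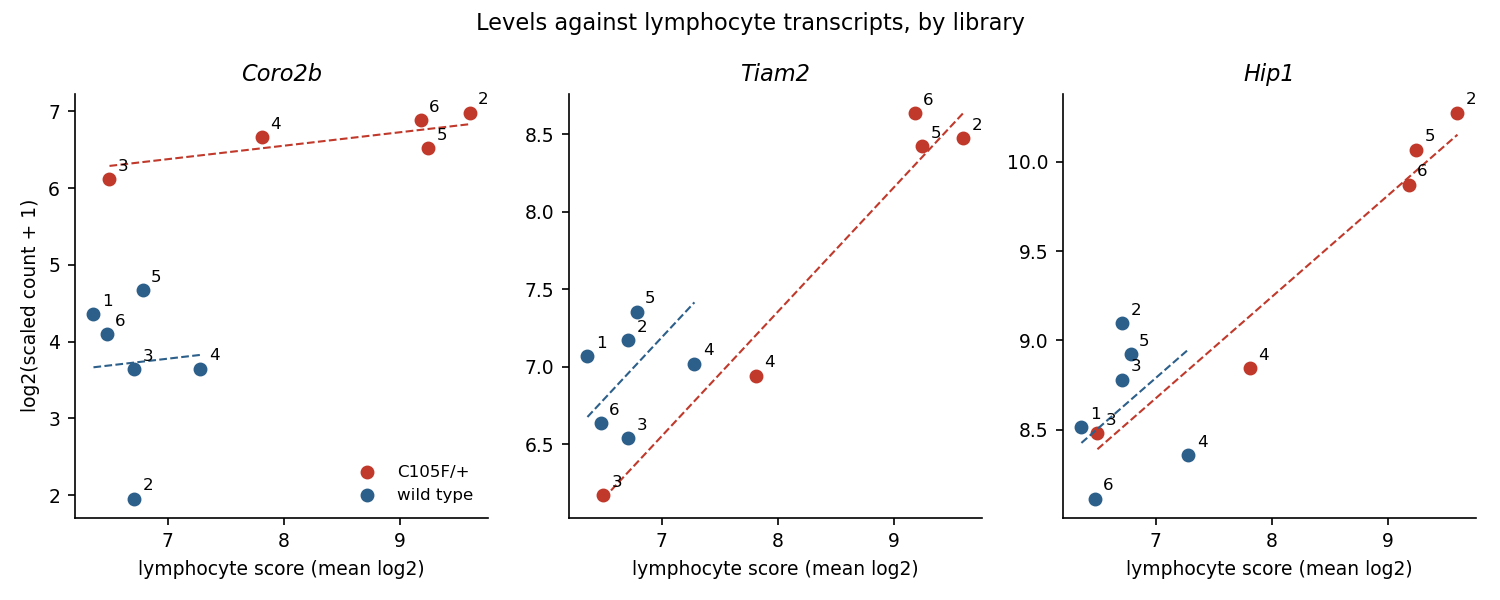
Level of each gene, as log2(scaled count + 1), against the lymphocyte score (mean log2 level of 24 lymphocyte rows) in 5 C105F/+ and 6 wild type libraries, with library numbers. Dashed lines have the slope fitted over both groups and pass through each group's mean: 0.18 for Coro2b, 0.80 for Tiam2 and 0.57 for Hip1.

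With genotype in the model, Tiam2 and Hip1 passed the test for a slope on the lymphocyte score under the main settings, and Coro2b did not. The slope is the change in log2 level per unit of score with genotype in the model, so that a slope of 1 means that the gene changes by the same factor as the lymphocyte rows on average. It was 0.80 for Tiam2 (SE 0.20, 95% interval 0.38 to 1.22) with an adjusted p of 0.0181 in edgeR's two-sided quasi-likelihood test over 322 rows. It was 0.57 for Hip1 (SE 0.17, 95% interval 0.20 to 0.94) with an edgeR adjusted p of 0.0418. For Coro2b it was 0.18 (SE 0.30, 95% interval -0.47 to 0.82) with an edgeR adjusted p of 0.720. Of the 322 rows tested, 45 passed at an adjusted p of 0.05, which is 14.0%, and 44 of them had a positive slope (13.7%). Among the 299 rows outside the lymphocyte lists, 31 passed with a positive slope (10.4%). The median slope was 0.30 over all rows, 0.23 outside the lists and 0.85 over the 23 lymphocyte rows tested, 13 of which passed. The selection of the table used the group means and the spread within groups but not the score. The rows of the score, however, come from the same selected table. The slope test is therefore not independent of that selection.

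The calls for Tiam2 and Hip1 depended on settings and on few libraries. With TMM scaling on the rows the edgeR adjusted p was 0.154 for Tiam2 and 0.354 for Hip1, and with the T cell list alone it was 0.131 and 0.110. The slope of Tiam2 stayed between 0.75 and 0.84 when each library was left out in turn, but its edgeR adjusted p was 0.298 without C105F/+ 3 and 0.052 without C105F/+ 2. The slope of Hip1 stayed between 0.53 and 0.67. Its edgeR adjusted p was over 0.05 without any 1 of the C105F/+ libraries, with the highest value of 0.332 without C105F/+ 3, and without wild type 1, 3 or 6 (0.0539, 0.0565 and 0.0628). Without wild type 4 the adjusted p was 0.0023 for Tiam2 and 0.0038 for Hip1 by edgeR, and 113 rows passed, whereas 15 rows passed without C105F/+ 2 or without C105F/+ 3. It was 29 without C105F/+ 5 and 30 without C105F/+ 6.

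**Figure D3:**
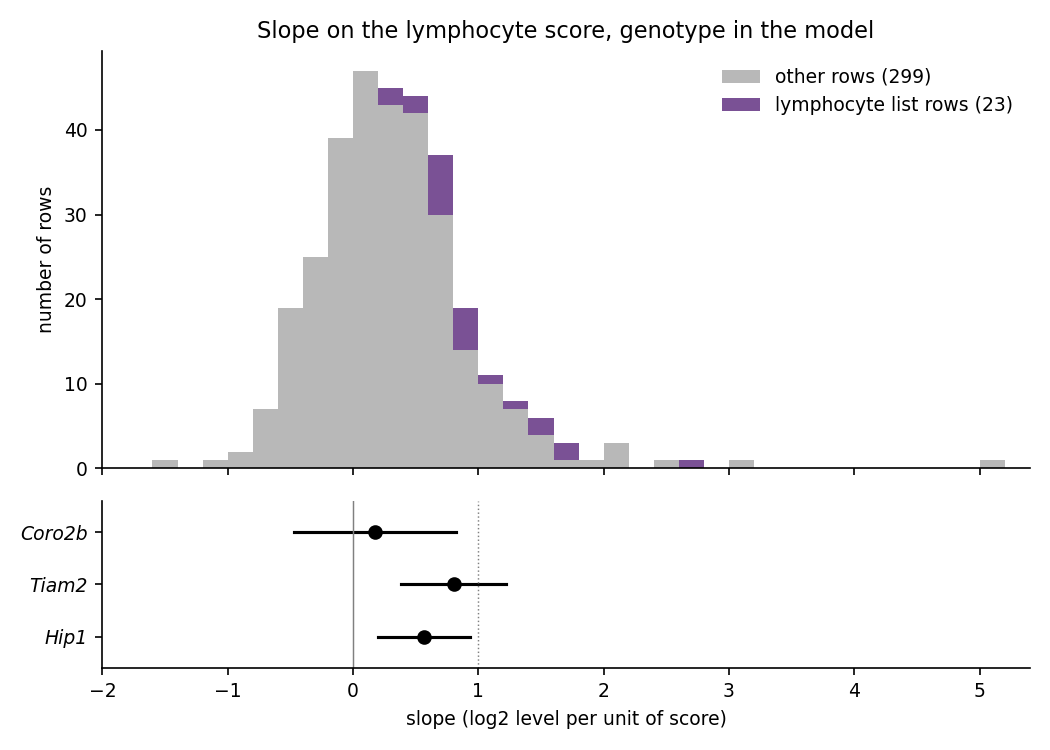
Upper panel: histogram of the slope on the lymphocyte score (log2 level per unit of score) for 322 rows, with 23 lymphocyte rows in purple; lower panel: slopes of the 3 genes with 95% intervals, a solid line at 0 and a dotted line at 1. The intervals of Tiam2 (0.38 to 1.22) and Hip1 (0.20 to 0.94) lie above 0 and that of Coro2b (-0.47 to 0.82) spans it.

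The slopes were also compared with each other. The slope of Coro2b was lower than that of Tiam2 by 0.62 on the log2(scaled count + 1) scale, with a p of 0.0227 in a two-sided exact permutation test of the score within genotypes and 0.068 after adjustment over the 3 pairs. Coro2b differed from Hip1 by -0.39 (exact permutation p = 0.0909, adjusted p = 0.107), and Tiam2 from Hip1 by 0.23 (exact permutation p = 0.107, adjusted p = 0.107). None of the 3 differences passed after adjustment, so a slope of Coro2b apart from the others is not shown.

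Of the spread in score within genotypes, most lay in C105F/+, and the slopes of Tiam2 and Hip1 passed there and not in wild type. Fitted by group, the slopes in C105F/+ were 0.85 for Tiam2, 0.60 for Hip1 and 0.23 for Coro2b, with edgeR adjusted p-values of 0.0102, 0.0229 and 0.547. In wild type they were 0.19, 0.05 and -0.58, with edgeR adjusted p-values of 0.856, 0.967 and 0.745. The group difference itself did not pass for any of the 3 genes: it was 0.66 for Tiam2, 0.55 for Hip1 and 0.81 for Coro2b, with edgeR adjusted p-values of 0.516, 0.582 and 0.650. The wild type score had an SD of 0.32 against 1.29 in C105F/+, which leaves wide errors for the wild type slopes (SE 0.64, 0.63 and 1.11).

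Across the 6 wild type libraries alone no correlation with the score was detectable. For Tiam2 Pearson's r was 0.20 (exact permutation p = 0.740, adjusted p = 0.848 over 322 rows) and Spearman's rank correlation was 0.086 (exact permutation p = 0.919). For Hip1 r was 0.05 (exact permutation p = 0.918, adjusted p = 0.960) and Spearman's rank correlation was 0.14 (exact permutation p = 0.803). For Coro2b r was -0.19 (exact permutation p = 0.711, adjusted p = 0.830) and Spearman's rank correlation was -0.086 (exact permutation p = 0.919). Without wild type 4 and wild type 1, whose scores lay farthest from the median, r over the remaining 4 libraries was 0.61 for Tiam2, 0.92 for Hip1 and -0.08 for Coro2b. By this exact permutation test 0 of 322 rows passed at an adjusted p of 0.05 (0.0%, smallest adjusted p = 0.363), and 38 had an unadjusted p under 0.05. The smallest unadjusted p that 720 pairings allow is 0.0028, so no row could have passed the adjustment over 322 rows on its own. In edgeR's fit of the wild type slopes 72 rows passed, the 3 genes not among them.

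With the score in the model the genotype difference of Coro2b moved by less than its SE. Those of Tiam2 and Hip1 fell below 0, with a sign that their SEs do not settle. With the lymphocyte score as a covariate the log2 fold change was 2.47 for Coro2b (SE 0.65), -0.65 for Tiam2 (SE 0.45) and -0.15 for Hip1 (SE 0.39). Without it the values were 2.80, 1.02 and 1.00. The median over all rows moved from 1.11 to -0.07 under the same covariate, so the change seen for Tiam2 and Hip1 was also that of the median row, which Coro2b did not share. With the plasma cell score alone the values were 2.31, -0.69 and -0.18, and with the T cell score alone 2.65, -0.72 and -0.40. With a neutrophil score they were 2.71, 0.02 and 0.22. The score is itself higher in C105F/+ on average, so genotype and score share part of their spread over libraries and cannot be fully told apart.

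**Figure D4:**
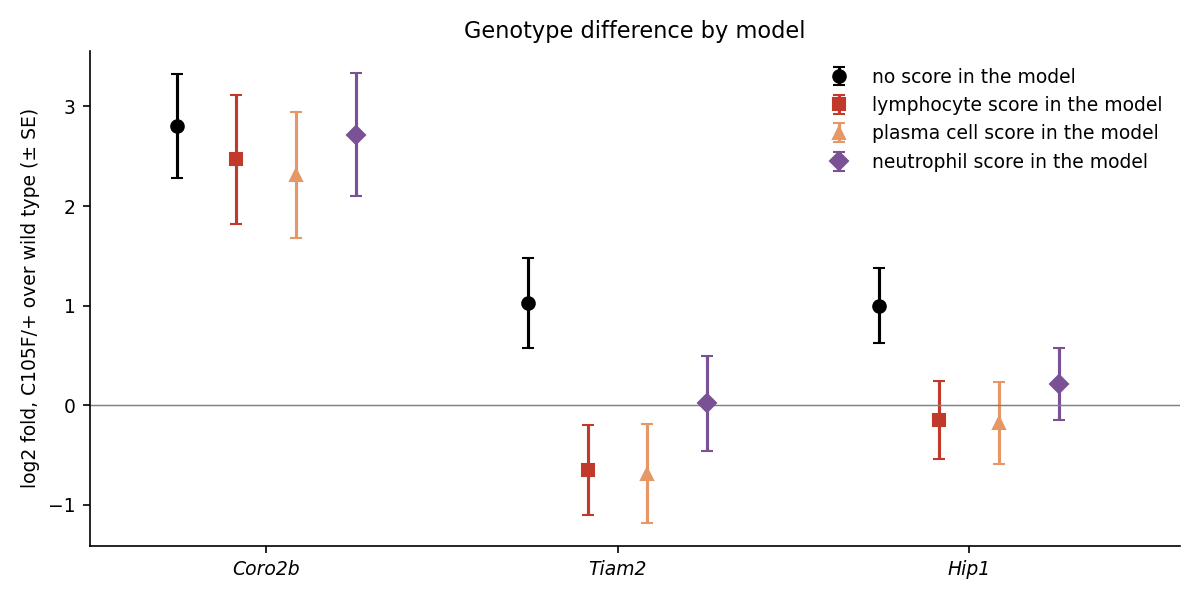
Log2 fold change of C105F/+ over wild type (± SE, 11 libraries) for each gene without a score and with the lymphocyte, plasma cell or neutrophil score in the model. Coro2b lies between 2.31 and 2.80 under all 4 models, and Tiam2 and Hip1 lie near or below 0 once a score is included.

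Few listed markers of other blood cells had rows, and most of these rows were high in the same libraries. The part of any 1 cell type in the levels of Tiam2 and Hip1 was not tested. Neutrophil markers had 5 rows of 18 genes, led by Mpo and Csf3r, with summed scaled counts from 1152 to 28216 in C105F/+ and from 1014 to 7603 in wild type. Markers of eosinophils, basophils and mast cells had 4 rows of 16 genes, led by Prg2 and Ear1, with sums from 374.7 to 8372 and from 340.4 to 1284; Ear1 and Ear6 were at 0 in some libraries. The fourth row of that list, the mast cell protease Mcpt1, was lower in C105F/+, at 42.6 ± 25.8 scaled counts (SD, n = 5) against 99.3 ± 56.2 (SD, n = 6). The C105F/+ mean of Mpo was 8982 with C105F/+ 2 and 5568 without it, and that of Ear1 was 470.6 and 305.5; the wild type mean of Ear1 was 20.7 with wild type 4 and 10.1 without it. The monocyte and macrophage list had 3 rows of 20, led by Ace and Cd300e, with sums from 2673 to 13111 and from 559.2 to 6897. The erythroid and platelet list had 3 rows of 18, led by Alas2 and Sptb, with sums from 516.2 to 4302 and from 211.5 to 1441. C105F/+ 2, 5 and 6 had the highest score on each of these lists.

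C105F/+ 4 did not stand at the same place on every list. Its plasma cell score was 10.75, above every wild type library (8.81 to 9.45), while its neutrophil score of 7.23 and its eosinophil, basophil and mast cell score of 3.78 did not exceed the wild type range. In this library Tiam2 (122.0 scaled counts) and Hip1 (458.5) were inside the range of wild type, and Coro2b (100.2) was above it. Over 11 libraries, deviations of Tiam2 from its group means correlated with those of the lymphocyte score at r = 0.92, of the neutrophil score at 0.79 and of the monocyte and macrophage score at 0.73. For Hip1 the values were 0.84, 0.85 and 0.87, and for Coro2b 0.20, 0.06 and -0.08. These are descriptions over points that share size factors and the 3 high C105F/+ libraries, and the lymphocyte and neutrophil scores themselves had r = 0.84. The values for Coro2b rest mostly on wild type, where its log2 level had an SD of 0.96, against 0.34 in C105F/+. Wild type 2 held only 3 reads of it. For Tiam2 the SD was 0.31 in wild type and 1.11 in C105F/+, and for Hip1 0.37 and 0.79. The low values of Coro2b therefore do not show how it followed the scores within C105F/+. Endothelial and stromal markers (Flt1 and Cdh5, 2 rows of 16) summed to 569.1 to 1690 in C105F/+ and 127.8 to 793.0 in wild type, and the immediate-early list (6 rows of 24, led by Fos and Fosb) to 58493 to 117410 and 1509 to 43261. For these lists wild type 4 was the lowest library, at a score of 5.55 and 7.64.

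The leading rows of the lymphocyte lists show how large these differences were. Jchain, which joins IgM and IgA into polymers, had 134484 ± 76608 scaled counts in C105F/+ (SD, n = 5) and 18081 ± 3423 in wild type (SD, n = 6), and Txndc5, a protein folding enzyme, 11941 ± 4438 and 4881 ± 823. Cd79a, a chain of the B cell receptor, had 2282 ± 1668 and 611.3 ± 709.5, and Pou2af1, a B cell coactivator, 2013 ± 1291 and 440.3 ± 533.0. Cd28, a costimulatory receptor of T cells, and Ctla4, an inhibitory one, had 337.1 ± 158.9 against 79.9 ± 25.8 and 219.5 ± 148.6 against 49.3 ± 22.8. Il2rb and Eomes of the NK cell list had 236.4 ± 201.1 against 65.7 ± 82.0 and 104.6 ± 66.8 against 22.3 ± 17.1. Some wild type means rested on wild type 4, which held 2041 scaled counts of Cd79a, 1523 of Pou2af1 and 231.4 of Il2rb. Without it those means were 325.4, 223.9 and 32.6.

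The genes whose pattern within genotypes was most like that of Tiam2 and Hip1 included markers of lymphocytes and myeloid cells. Likeness was the Pearson r of deviations from the group means of log2(scaled count + 1) over 11 libraries, among 287 rows. For Tiam2 the 5 highest were Tigit (0.92), an inhibitory receptor of T and NK cells, Ms4a1 (0.91), the B cell antigen CD20, Enpp1 (0.91), Il1rap (0.91), a subunit of the IL-1 receptor, and Fcer2a (0.90), the low affinity IgE receptor of B cells, where the median row had 0.32. For Hip1 they were Ceacam1 (0.91), an adhesion molecule, Tiam2 (0.89), Trem1 (0.88), a receptor of neutrophils and monocytes, Fcer2a (0.87) and Zbtb16 (0.86), a transcription factor of innate-like lymphocytes, where the median row had 0.35. Of these rows, Ms4a1 and Fcer2a are part of the lymphocyte score. Coro2b had other neighbours. They were Dhrs9 (0.87), a short-chain dehydrogenase, Ppp1r12b (0.79), a regulatory subunit of myosin phosphatase, Cacnb2 (0.78), a calcium channel subunit, A430078G23Rik (0.77) and Fam214a (0.76), against a median of 0.05. The likeness of Coro2b rests mostly on wild type, where its log2 level had an SD of 0.96 against 0.34 in C105F/+. As wild type 2 held only 3 reads of Coro2b, its neighbours may reflect that library.

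Dhrs9 had 86.2 ± 38.1 scaled counts in C105F/+ and 31.7 ± 13.8 in wild type, and Fam214a, the most abundant of them, had 989.6 ± 186.4 and 445.4 ± 87.8. Between the 3 genes themselves, r within groups was 0.89 for Tiam2 with Hip1, 0.23 for Coro2b with Tiam2 and 0.00 for Coro2b with Hip1. The values with Coro2b likewise rest mostly on its few reads in wild type.

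Few rows belonged to the gene lists around Coro2b and Hip1, and their counts are set here against all rows, of which 253 of 417 were higher and 21.1% were higher and past an adjusted p of 0.05 by the authors' deposited table. Of 88 listed genes of coronins and actin regulation, 2 had rows, Coro2b and Ablim1, an actin-binding LIM protein. Ablim1 had 1044 ± 430.0 scaled counts in C105F/+ and 506.2 ± 246.3 in wild type, and 1000 in wild type 4. The authors' deposited table gives it an adjusted p of 0.0741. Of 72 genes of clathrin-mediated uptake and recycling, 3 had rows, all higher, with a median log2 fold change of 1.29 against 1.10 over all rows in the authors' deposited table. They were Hip1, Pacsin1, a membrane-bending protein that also marks plasmacytoid dendritic cells (1290 ± 504.3 against 527.3 ± 243.6, and 68.1 in wild type 4), and Ehd3, an ATPase of recycling endosomes (126.0 ± 89.5 against 37.3 ± 21.2). The authors' deposited table gives Ehd3 an adjusted p of 0.0409. With 2 and 3 rows, these counts cannot be told apart from the shares over all rows.

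Another list, which holds Tiam2, had rows in both directions and is given in part. Rac3, a Rac GTPase, was lower in C105F/+ (23.4 ± 13.1 scaled counts against 74.0 ± 90.3), and so was Fgd5, an exchange factor known from endothelium (13.3 ± 7.98 against 59.4 ± 71.5). Without wild type 4, which held 255.5 and 203.2, the wild type means were 37.7 for Rac3 and 30.7 for Fgd5. Fgd6, another exchange factor, was higher (719.3 ± 266.4 against 322.7 ± 117.4), with an adjusted p of 0.0314 in the authors' deposited table. Arhgef37 was at 55.8 ± 30.8 against 13.5 ± 15.5, and its wild type mean was 8.61 without wild type 4. Mcf2, the proto-oncogene Dbl, was at 0 in all 6 wild type libraries and in C105F/+ 3 and 4, and at 18.7, 10.7 and 8.47 in C105F/+ 2, 5 and 6. The remaining genes of these lists were not analysed here.

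Counts and FPKM, with a depth for each library, give the transcript length on which the authors' FPKM was based. The depth was not measured but inferred, as a median over 74 rows with 1 counted transcript of annotated length. Hip1 meets the conditions for these rows, so its closeness to its annotated length is partly built in. Coro2b lies on the minus strand of chromosome 9 (chr9:62419492-62537044, mm10), Hip1 on the minus strand of chromosome 5 (chr5:135406531-135545120) and Tiam2 on the plus strand of chromosome 17 (chr17:3326573-3531344). The implied length of Hip1 was 7891 to 7916 bases in all 11 libraries, beside 7835 bases of exons in its annotated transcript NM_146001. For Coro2b it was 3630 to 3991 bases in 10 libraries, beside 3610 for NM_175484, and 5441 in wild type 2, where it rests on 3 reads. The implied length of Tiam2 was 6170 to 6240 bases in 10 libraries, close to the 6127 bases of NM_011878, which starts at 3397207. In C105F/+ 2, the library with the most reads of Tiam2 (701), it was 4037 bases.

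This was a departure of Tiam2 in 1 library. Among 120 rows with at least 50 counts in every library, 4 departed by more than 10% from their usual count per FPKM in any library, and Tiam2 was the only 1 in C105F/+ 2. There its count per FPKM was 0.652 of its median over libraries. The annotation holds shorter Tiam2 transcripts, among them those of 2131 bases from the start at 3482315 and of 3184 bases from the start at 3483490. Their promoter windows are shown above, and both are typed as processed transcripts without a RefSeq name. Others have 929 to 3303 bases. The coding transcript NM_001122998, of 5725 bases, starts at 3326573, and no window is shown for it. The authors counted 4 transcripts for Tiam2. Which transcripts were present was not tested, since the table holds 1 sum per gene and the submitters' notes give no settings for the assembly. The antisense gene Tfb1m spans 3519256 to 3557781. The RefSeq span of Tiam2, which ends at 3519397, overlaps it by 142 bases, and the span given above to 3531344 overlaps it further. No source used here states the counting strand, so reads from the shared stretch cannot be told apart. In C105F/+ 2 the FPKM of Tiam2 is thus high for its count, and the share of this in the gap between its genotype ratios in FPKM (2.69) and scaled counts (2.03) was not tested.

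**Figure D5:**
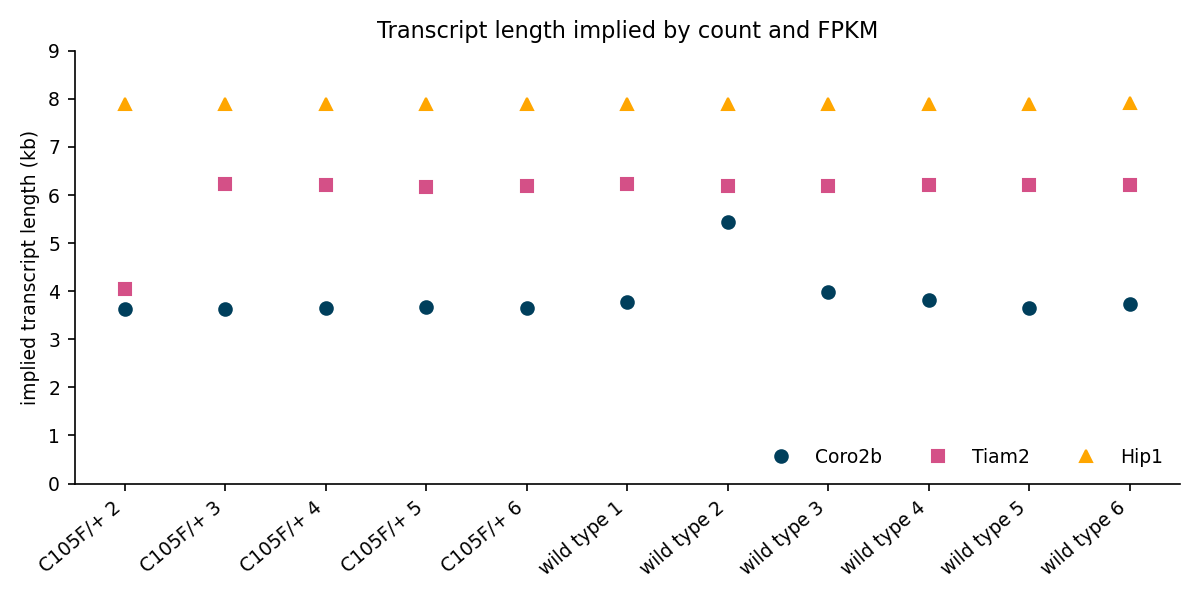
Transcript length in kb implied by the read count, the FPKM and the library's depth, for each gene in each of 11 libraries. The depth was itself inferred from annotated transcript lengths. Hip1 and Tiam2 are level across libraries except for Tiam2 in C105F/+ 2 (4037 bases), and Coro2b departs in wild type 2 (5441 bases).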

How the data were processed

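Spleen dendritic cell RNA of 5 C105F/+ and 6 wild type libraries was analysed from 1 table of 417 rows deposited by the authors. The submitters' processing notes name DESeq2, StringTie 2.1.3b, HISAT2 2.1.0 and Bowtie2 2.3.4.1, as well as Trimmomatic 0.38, FastQC 0.11.7 and the build mm10, and no settings were given. Per the file headers, the deposited table gives read counts and FPKM per library. Its log2 normalized values were also made by the authors, by a transformation not given in the sources used here. The authors' deposited mean over libraries is a signal, the mean of counts over size factors. The signed fold that the authors deposited, standard error and test statistic (log2 fold over standard error) are score columns, and the p-values are the authors' own.

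Size factors were recovered by least squares from the deposited counts and means (largest relative error 4.7e-15). Counts were fitted with edgeR 4.0.16 (R 4.3.3, limma 3.58.1) with these factors and edgeR's low count filter, which left 322 rows. The score coefficient beside genotype was tested with the two-sided quasi-likelihood test and Benjamini-Hochberg adjustment, after a test on simulated data. Exact permutation tests were computed with numpy 2.4.6, with ranks from scipy 1.17.1. DESeq2 1.42.0, limma and other settings served as alternatives. Members, gene lists and tests were chosen with earlier results of these data known. Named genes were the 3 members, for each the 5 rows of highest likeness (mean scaled count of at least 20, predicted genes left out), all rows of the family lists and the 2 most abundant rows of each cell type list. The family list that holds Tiam2 is reported in part. Promoters came from RefSeq (GRCm38.p6) and transcripts from GENCODE, both on the build of mm10. Protein sequences were not used here.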

Additional observations from a re-analysis of the deposited data

Results flagged for a closer look

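A value was singled out where the highest or lowest library of a group lay far from the nearest other library relative to the group's whole range (over 0.71 of it for 5 libraries, 0.625 for 6). Of 40 groups of values examined, 8 were singled out, and chance does so for about 1 group in 20. None of these 8 was a level of Coro2b, Tiam2 or Hip1 in scaled counts or FPKM.

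The transcript length implied for Tiam2 was 4037 bases in C105F/+ 2, against 6170 to 6240 in the other libraries. That of Coro2b was 5441 bases in wild type 2, on 3 reads. That of Hip1 was 7916 bases in wild type 6, while the remaining wild type values were 7896 to 7903.

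The plasma cell score was 8.81 in C105F/+ 3, far below the other C105F/+ libraries (10.75 to 11.47). The T cell score was 4.24 in wild type 1, below the other wild type libraries (5.22 to 5.60). In wild type 4 the B cell score was high at 8.66, the endothelial and stromal score low at 5.55 and the immediate-early score low at 7.64, where the other wild type libraries lay at 11.92 to 12.36.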

How the results depend on the processing

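The genotype differences are descriptions of selected rows. Scaling on the rows themselves takes most of them as unchanged: TMM moved the median log2 fold change of all rows from 1.11 to 0.16, and gave 1.88 for Coro2b, -0.044 for Tiam2 and -0.041 for Hip1. Median of ratios gave 0.12 and 0.15 for Tiam2 and Hip1. With a lymphocyte, plasma cell or T cell score in the model Tiam2 was at -0.65, -0.69 and -0.72 (SE 0.45, 0.50 and 0.68). Hip1 was at -0.15, -0.18 and -0.40 (SE 0.39, 0.41 and 0.50). These SEs do not settle the sign. With a neutrophil score Tiam2 and Hip1 were at 0.017 and 0.22. Coro2b was 0.54 by limma on log2(FPKM + 1) and 0.92 on the deposited log2 values, scales that compress low levels, and 3.04 on log2(FPKM + 0.01). Leaving out each library gave 2.59 to 3.03 for Coro2b, 0.81 to 1.26 for Tiam2 and 0.80 to 1.19 for Hip1.

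The slopes of Tiam2 and Hip1 were positive under every alternative run, and their calls were not stable. The edgeR adjusted p was over 0.05 for Tiam2 with the T cell list (slope 0.77), plasma cell list (0.91), neutrophil list (0.50), eosinophil, basophil and mast cell list (0.31), monocyte and macrophage list (0.52), erythroid list (0.42), endothelial list (0.21), immediate-early list (0.061), TMM (0.68) and wild type alone (0.19). For Hip1 it was so with the T cell (0.65), B cell (0.50), plasma cell (0.66), NK cell (0.36), neutrophil (0.42), eosinophil, basophil and mast cell (0.23), monocyte and macrophage (0.51), erythroid (0.43), endothelial (0.26) and immediate-early lists (0.13), TMM (0.36), no low count filter (0.57, adjusted p = 0.050) and wild type alone (0.052). The slope of Coro2b was -0.28 with TMM and -0.58 in wild type, and 0.81 with an edgeR adjusted p of 0.0214 without the genotype term, which mixes in the genotype difference. Leaving out each library gave slopes of -0.010 to 0.21 for Coro2b, 0.75 to 0.84 for Tiam2 and 0.53 to 0.67 for Hip1. Rows passing numbered 45, and 7, 13, 28, 29, 18, 14, 78 and 78 with the T cell, plasma cell, neutrophil, eosinophil, monocyte, erythroid, endothelial and immediate-early lists. They numbered 18 with TMM, 81 with DESeq2, 203 without the genotype term, 72 in wild type alone and 15 to 113 when 1 library was left out. The cause was not tested. The lists of other cell types, the fits by group, the other cell type covariates the FPKM pseudocount of 0.01 and the list means without a library were chosen after seeing the data.

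Replicate numbers are shared between groups but mark no shared litter or day in the labels. Deviations of same-numbered libraries correlated at -0.03, -0.17, -0.04, 0.34 and 0.06, so the numbers were not taken as pairs. With the replicate block the slopes were 0.66 for Tiam2 (edgeR adjusted p = 0.240), 0.52 for Hip1 (0.318) and 0.25 for Coro2b (0.839), 8 rows passed, and the log2 fold changes were 3.05 for Coro2b, 0.79 for Tiam2 and 0.86 for Hip1.

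The wild type correlation changed sign for Coro2b (0.19) and Tiam2 (-0.35) with the NK cell list, and for Hip1 with the B cell list (-0.12), the NK cell list (-0.47) and the deposited log2 values (-0.024). Leaving out each library gave -0.48 to -0.01 for Coro2b, 0.01 to 0.35 for Tiam2 and -0.31 to 0.76 for Hip1. With 6 libraries and a score SD of 0.32, relations within wild type are poorly resolved, and for Coro2b they rest on 3 to 29 reads.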
